A study of Mus musculus with 12 samples.

Results

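The guanylate-binding proteins (GBPs) and the immunity-related GTPases (IRGs) are the GTPases that interferon switches on in mouse cells. The 10 genes described here, the GBP genes *Gbp2*, *Gbp3*, *Gbp5*, *Gbp6* and *Gbp7* and the IRG genes *Igtp*, *Irgm1*, *Irgm2*, *Iigp1* and *Ifi47*, were picked by name and not by a measured value. Each matched 1 of the 23847 rows of the expression tables, which carry 23361 gene symbols. All 10 were among the 11191 rows that reached 1 FPKM (fragments counted for a gene, corrected for transcript length and for the total mapped in that sample) in at least 1 sample, and they form 5 genes of each family. A question the groups allow to be asked of these genes is how far exposure to IL-4 beforehand alters their response to LPS.

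GBPs and IRGs are large GTPases that gather on pathogen-containing vacuoles and on bacteria inside the cell, where they help to break open the membrane. GBPs also expose LPS in the cytosol to the caspase-11 pathway. Type I interferon acts on genes through interferon-stimulated response elements (ISREs), which a complex with STAT2 and IRF9 binds, and interferon-γ acts through gamma-activated sites (GAS). In macrophages LPS engages TLR4, and the interferon-β that follows acts back on the same cells. The IRGM proteins (*Irgm1*, *Irgm2* and *Igtp*, which encodes Irgm3) are regulators that sit on the cell's own membranes, whereas *Iigp1*, which encodes Irga6, and *Ifi47*, which encodes Irgd, belong to the effector branch.

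The samples were bone marrow-derived macrophages (BMDMs) of wild-type mice, that is, marrow precursors matured into macrophages in a dish. Per the labels, the marrow came from mice of 8 to 12 weeks, and the cells were differentiated for 6 days in L929 supernatant (a source of MCSF, which the labels also name). Per the study's methods, the mice were on the C57BL/6 background. All 4 groups shared this differentiation, and each held 3 samples: control, with neither agent; IL-4, given at 20 ng/ml for 24 h; LPS, given for 3 h at 100 ng/ml per the labels (the study's methods write the unit as nM); and IL-4+LPS, in which IL-4 for 24 h came before LPS for 3 h. The study describes the RNA-seq samples as coming from 3 individual animals in 2 independent experiments. The labels tie no sample to an animal or an experiment, so the p-values measure the spread between these samples. L929 supernatant and MCSF reached the control cells as well, so every difference below is on top of that exposure.

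The FPKM summed over all rows ran from 457583 to 495025 per sample. Fragment counts were not used here, and the relative depth, read from the steps between low values, ran from 0.991 to 3.296 with control replicate 1 set to 1, so that the lowest values carry the least support. Replicate 1 stood apart in all 4 groups, and whether it was an experiment of its own is not given in the labels. It also had the lowest relative depth in each group, at 0.991 to 1.032, against 1.266 to 3.296 for the other samples. The part of depth in this was not tested. Its 4 samples scored 15.5 to 33.31 on the first component of the within-group differences, which held 28.15% of that variance, and the other samples scored -18.57 to -4.454. Of 8 macrophage marker symbols only *Adgre1* was not listed, and the same gene was listed under its older symbol, *Emr1*. The 7 markers listed, *Csf1r* and *Cd68* among them, reached 1 FPKM in every group. Their sum was lower in the IL-4 groups, at 7571 to 7785 FPKM after IL-4 and 6567 to 6954 after IL-4 and LPS, than in the control (19230 to 20600) and LPS (15470 to 16700) samples, and *Lyz2*, which encodes lysozyme, made up 62.1% to 81.0% of it. The other 6 markers summed to 3889 to 4091 FPKM in control samples, 2652 to 2951 after IL-4, 3003 to 3262 after LPS and 2361 to 2448 after both. Of these 6, IL-4 alone lowered 5, against 21.0% of all rows called lower in the limma test described below. It left *Cd68* not called (-0.21 on the log2 scale, adjusted p = 0.140). In IL-4+LPS against LPS 4 were lower, against 15.8% of all rows, and *Mertk* was higher, as were 15.0% of all rows. *Cd68* was at 0.06 there (adjusted p = 0.720). The part of these markers in the effects of IL-4 below was not tested. Of 9 T and NK cell markers only *Cd4* reached 1 FPKM, in the control and LPS samples, *Cd3d* was listed at 0 in the control, IL-4 and IL-4+LPS samples, and *Ifng*, which encodes interferon-γ, stayed at or below 0.167 FPKM in all 12 samples. The 5 neutrophil markers listed were detected in every group and summed to 213 to 1016 FPKM, and their part in the results was not tested.

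The 10 genes lie in a few groups on mm10, the build of the files. *Gbp5*, *Gbp7*, *Gbp3* and *Gbp2* follow each other within 141.1 kb of chromosome 3 (142496934 to 142638008), and *Gbp6* is the only member on chromosome 5 (105270702 to 105293699). *Igtp* and *Irgm2* are neighbours within 23.23 kb of chromosome 11 (58199556 to 58222783) and *Irgm1* and *Ifi47* share a 231.7 kb stretch of the same chromosome (48865249 to 49096987). *Iigp1* lies apart from the rest. Each row overlapped the protein-coding gene of its name in GENCODE vM21. How the fragments of overlapping or near-identical genes were divided is not given in the sources used here. For *Gbp6* this matters most, since 59.66% of the 50-base words of its longest transcript recur in other genes, mainly *Gm43302*, with which it also shares 1726 exonic bases. The share was 12.85% for *Gbp7*, 12.32% for *Igtp* (all in *Irgm2*) and at most 7.301% for the others, and it was 0 for *Irgm1*. The values of *Gbp6* are therefore uncertain.

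The stretches of promoter that hold an ISRE core are shown because 7 of the 8 member genes with an entry in the RefSeq promoter table (GRCm38.p6; 250 bases before to 50 after the annotated start) carry one. The core searched was GAAA, any 2 bases, GAAA, on both strands, and capitals mark each match, so that a match on the strand opposite to the gene reads as its reverse complement. All run 5′ to 3′ along the strand of the gene, and overlapping matches are merged.
Gbp5, chr3:142496744-142496803, plus strand: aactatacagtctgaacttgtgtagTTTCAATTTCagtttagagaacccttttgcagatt
Gbp7, chr3:142530258-142530317, plus strand: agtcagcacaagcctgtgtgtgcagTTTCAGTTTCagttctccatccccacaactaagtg
Gbp3, chr3:142559977-142560036, plus strand: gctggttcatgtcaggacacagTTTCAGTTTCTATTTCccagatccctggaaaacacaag
Gbp2, chr3:142620594-142620623, plus strand: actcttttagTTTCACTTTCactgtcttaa
Irgm1, chr11:48871428-48871457, minus strand: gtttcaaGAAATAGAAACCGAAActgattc
Igtp, chr11:58199496-58199555, plus strand: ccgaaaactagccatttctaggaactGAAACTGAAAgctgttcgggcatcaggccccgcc
Irgm2, chr11:58214888-58214947, plus strand: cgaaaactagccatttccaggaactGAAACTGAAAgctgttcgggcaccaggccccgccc

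Over all 32851 windows of that table, 3.44% held the ISRE core, beside 7 of the 9 windows of the 8 member genes. Of the printed stretches, GENCODE vM21 exons of the same gene cover all 30 bases for *Irgm1*, 22 of 30 for *Gbp2* and 11 of 60 for *Gbp3*. In the chromosome 3 group the core stood on the strand opposite to the gene, and in the 3 genes of chromosome 11 it stood on the gene's own strand. The parts of the *Igtp* and *Irgm2* windows before the start aligned over 220 columns with 194 identical bases (88.18%). In both, a match to the GAS letters (TTC, any 3 bases, GAA) came just before the core, beginning at position -45 with the core at -34 for *Igtp*, and at -75 with the core at -64 for *Irgm2*, counted from the start. These letters were also in the windows of *Gbp5* and *Gbp7*, and in 8.30% of all windows. The STAT6-type spacing (TTC, any 4 bases, GAA) was found only for *Gbp3*, at the second of its annotated starts, against 6.95% of all windows, and the kappa B letters (GGGA, any 2 bases, TTCC) were found for *Gbp2* and *Gbp5*, against 1.47%. No match overlapped a match of a different motif. None of the 4 motifs was in the window of *Ifi47*, and *Gbp6* and *Iigp1* had no entry. A match describes letters in a window and says nothing of binding in these cells.

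**Figure D1:**
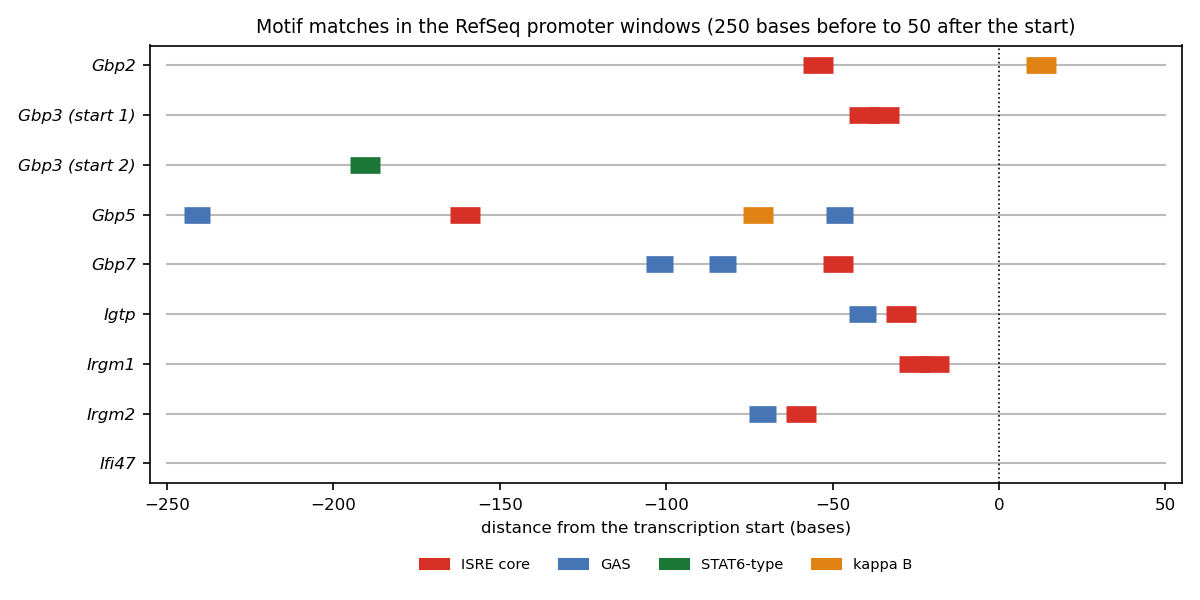
Matches to the 4 motifs in the promoter windows of 8 member genes (*Gbp3* with both annotated starts), by distance in bases from the transcription start. The ISRE core (red) lies between positions -64 and -15 in all windows that hold it except that of *Gbp5*, where it begins at -165.

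In control cells the 10 GTPases spanned levels from near the detection limit to the upper part of the expressed genes. *Irgm1* was the highest at 23.0 ± 6.20 FPKM (mean ± SD, n = 3 here and below), above 73.3% of the 11191 rows, and *Ifi47* followed at 15.1 ± 4.16. *Irgm2*, *Igtp* and *Gbp2* lay between 10.3 and 10.9 FPKM with values that overlapped, and so did *Gbp3* at 5.25 ± 2.04 and *Gbp7* at 3.60 ± 1.02. *Gbp5* was low, at 1.80, 2.70 and 1.504 FPKM in replicates 1 to 3, *Iigp1* was at 1.25, 1.05 and 0.203, and *Gbp6* was at 0.404, 0.182 and 0.159. The 10 genes together took 0.0128% to 0.0213% of the summed FPKM of a control sample.

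After 3 h of LPS all 10 genes were higher than in control cells, and in no gene did the samples of these groups overlap. The limma test on log2(FPKM + 1), with Benjamini-Hochberg adjustment over all 11191 rows, called all 10 higher, against 16.9% of all rows called higher and 57.7% called lower. Of the 10, *Gbp6* reached 1 FPKM only in LPS-exposed samples. Without the expression filter all 10 were still called higher. Groups without overlap in that direction occurred in 17.9% of all rows. The median log2 fold change of the 10 was 3.72, beside -0.44 for all rows. Scaling each sample to the median of rows expressed everywhere moved the median of all rows up by 0.30 to -0.14 and left all 10 called higher, at 3.12 for *Gbp6* to 7.97 for *Gbp5*. Together the 10 genes rose to 0.412% to 0.461% of the summed FPKM. In RNA from a whole culture, more cells expressing a gene and more RNA per cell cannot be told apart.

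*Gbp5*, whose product has been linked to NLRP3 inflammasome assembly, changed most. It rose from 1.80, 2.70 and 1.504 FPKM in the control samples to 546, 619 and 651 FPKM in the LPS samples, a ratio of group means of 302.5, and its log2 fold change was 7.67 (SE 0.17, adjusted p = 9.03e-10). From one of the lowest of the 10 genes it became the highest, above 99.1% of the expressed rows, and its lowest LPS sample exceeded the highest LPS sample of any other member. *Gbp2*, which takes part in the lysis of bacteria-containing vacuoles, went from 11.9, 12.7 and 6.34 FPKM to 358, 311 and 345 FPKM (log2 fold change 4.95, SE 0.28, adjusted p = 1.20e-07). *Gbp3* rose from 7.20, 5.42 and 3.14 to 111, 99.6 and 109 FPKM (4.16, SE 0.27, adjusted p = 3.19e-07). *Gbp7* and *Gbp6* rose less on this scale. *Gbp7* rose from 4.77, 3.17 and 2.88 to 51.5, 34.9 and 41.2 FPKM (3.25, SE 0.25), and *Gbp6* reached 11.7, 7.48 and 6.87 FPKM (2.93, SE 0.21), although its ratio of means, 35.0, was above the 32.7 of *Gbp2*, because adding 1 to each value shrinks the change of a gene that starts below 1 FPKM.

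The IRG genes moved over a narrower range than the GBP genes, with log2 fold changes of 3.38 to 4.36, against 2.93 to 7.67. *Ifi47* led them on the log2(FPKM + 1) scale (4.36, SE 0.23, adjusted p = 8.16e-08). It went from 16.5, 18.3 and 10.4 FPKM in the control samples to 273, 336 and 362 FPKM after LPS. By the ratio of group means *Iigp1*, with a control mean of 0.832 FPKM, was ahead, at 26.31 against 21.45 for *Ifi47*. *Igtp*, which holds GBPs and effector IRGs away from the cell's own membranes together with the other IRGM proteins, rose from 11.5, 11.8 and 9.23 to 145, 182 and 188 FPKM (3.87, SE 0.13, adjusted p = 3.45e-09). *Irgm1*, the member most studied for autophagy and mycobacterial control, rose from 29.4, 22.6 and 17.0 to 244, 265 and 284 FPKM (3.50, SE 0.19). The ratios of group means were 11.49 for *Irgm1*, 15.85 for *Igtp* and 11.15 for *Irgm2*. *Irgm2* rose from 13.4, 10.96 and 8.32 to 109, 125 and 130.1 FPKM (3.38, SE 0.15, adjusted p = 2.16e-08). *Iigp1*, on chromosome 18 (60376029 to 60392629), reached 36.2, 15.7 and 13.8 FPKM (3.57, SE 0.44, adjusted p = 2.81e-05), and its LPS samples were the most uneven of the 10 genes, with replicate 1 more than the other 2 samples together.

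**Figure D2:**
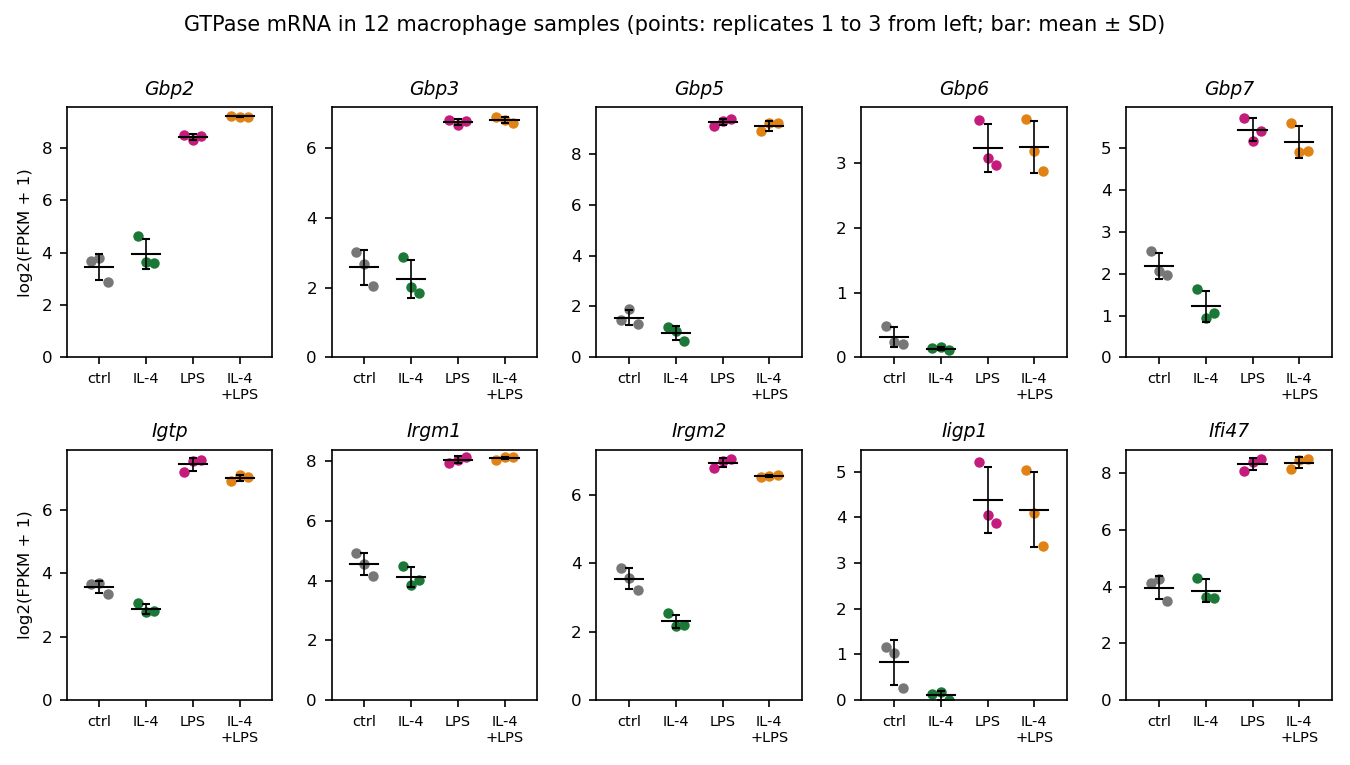
Level of each of the 10 GTPase genes as log2(FPKM + 1) in the 12 samples; points are replicates 1 to 3 from left to right and bars are mean ± SD of 3 samples. In every panel the 6 LPS-exposed samples sit above the 6 samples without LPS, and only *Gbp2* has all IL-4+LPS samples above all LPS samples.

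IL-4 alone for 24 h lowered a subset of the family. *Irgm2*, *Igtp*, *Gbp7* and *Gbp5* were called lower, 4 of 10, against 21.0% of all rows called lower, and limma called 0 of 10 higher, against 16.0%. At an unadjusted p under 0.05 the count of higher genes was also 0. The members' median log2 fold change was -0.52, beside -0.05 for all rows, and in 6 genes every IL-4 sample lay below every control sample (*Gbp5*, *Gbp6*, *Gbp7*, *Igtp*, *Irgm2* and *Iigp1*), a pattern found in 29.5% of all rows.

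*Irgm2* changed most. It was at 13.4, 10.96 and 8.32 FPKM in control cells and at 4.78, 3.52 and 3.56 FPKM after IL-4 (log2 fold change -1.25, SE 0.15, adjusted p = 0.00012), a control mean 2.754 times the IL-4 mean. Its neighbour *Igtp* fell from 11.5, 11.8 and 9.23 to 7.27, 5.78 and 5.96 FPKM (-0.69, SE 0.13, adjusted p = 0.0018). On chromosome 3, *Gbp7* fell from 4.77, 3.17 and 2.88 to 2.10, 0.922 and 1.10 FPKM (-0.96, SE 0.25, adjusted p = 0.0117), and *Gbp5* from 1.80, 2.70 and 1.504 to 1.28, 1.05 and 0.559 FPKM (-0.61, SE 0.17, adjusted p = 0.0183). The call for *Gbp5* was lost without control replicate 2 (adjusted p = 0.0679), without IL-4 replicate 3 (0.0734), without the expression filter (0.0533) and with only control and IL-4 samples in the fit (0.0588).

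The other 6 genes did not pass. *Irgm1* was at 21.7, 13.5 and 15.4 FPKM after IL-4 (-0.42, 95% interval -0.84 to 0.0025, adjusted p = 0.112), with values that overlapped those of control cells, and it passed without control replicate 3 (adjusted p = 0.0275) or IL-4 replicate 1 (0.0273). *Ifi47* was at 19.1, 11.5 and 11.2 FPKM (-0.11, interval -0.63 to 0.41), *Gbp3* at 6.32, 3.07 and 2.61 (-0.34, interval -0.94 to 0.27). *Gbp2* was the only one of the 10 with a positive estimate, at 23.6, 11.3 and 11.1 FPKM (0.50, interval -0.13 to 1.12, adjusted p = 0.199), and its high value came from replicate 1 alone. *Iigp1* was at 0.0918 and 0.137 FPKM and listed at 0 in IL-4 replicate 3 (-0.72, interval -1.68 to 0.25). *Gbp6* stayed at 0.0813 to 0.114 FPKM. At these levels a change on the log2(FPKM + 1) scale is small by construction, and with a pseudocount of 0.1 in place of 1 *Iigp1* was at -2.23 and passed (adjusted p = 0.0207).

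In cells that had received IL-4, LPS raised all 10 genes again, with log2 fold changes of 3.12 (*Gbp6*) to 8.14 (*Gbp5*) over the IL-4 samples and a median of 4.19, beside -0.41 for all rows. Among all rows 15.0% were called higher in this comparison. The 10 genes ended at 0.442% to 0.450% of the summed FPKM, inside the range of the LPS samples. The changes from IL-4 to IL-4+LPS were 5.25 for *Gbp2*, 4.57 for *Gbp3*, 3.91 for *Gbp7*, 4.13 for *Igtp*, 3.98 for *Irgm1*, 4.25 for *Irgm2*, 4.07 for *Iigp1* and 4.52 for *Ifi47*, with SEs of 0.13 to 0.44. The largest adjusted p of the 10 was 1.27e-05, for *Iigp1*.

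The comparison of IL-4+LPS with LPS alone asks what earlier IL-4 did to the level reached. For most of the 10 genes no difference was detected. *Igtp* was lower, 1 of 10, against 15.8% of all rows called lower, and 0 of 10 were called higher by limma, against 15.0%, with 1 at an unadjusted p under 0.05. These counts come from a fit without the replicate number. With that number as a block, *Gbp2* was called higher, and *Igtp* and *Gbp7* lower. The members' median log2 fold change was -0.07, beside -0.03 for all rows. In *Gbp2* every IL-4+LPS sample lay above every LPS sample, which 20.4% of all rows also showed, and in *Igtp* and *Irgm2* every one lay below, which 21.8% showed.

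*Gbp2* stood at 595, 578 and 583 FPKM after IL-4 and LPS, against 358, 311 and 345 FPKM after LPS, a ratio of means of 1.733. The log2 difference was 0.79 (SE 0.28, interval 0.17 to 1.42) and missed the threshold (adjusted p = 0.055). The SE of this gene is set in part by its uneven control and IL-4 samples, where it ran from 6.34 to 23.6 FPKM, whereas the SDs were 24.4 FPKM in the LPS samples and 8.52 in the IL-4+LPS samples. With only the LPS and IL-4+LPS samples in the fit it passed (adjusted p = 0.00179), as it did without control replicate 3 (0.0298) or IL-4 replicate 1 (0.0136). It also passed with the replicate number as a block and with replicates 2 and 3 alone. Measured as gain over the matched samples without LPS, *Gbp2* gained 327.3 FPKM without and 569.7 FPKM with earlier IL-4.

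*Igtp* stood at 118, 135 and 128 FPKM after IL-4 and LPS, against 145, 182 and 188 FPKM after LPS (-0.42, SE 0.13, interval -0.70 to -0.14, adjusted p = 0.0269). This call was lost without LPS replicate 2 (adjusted p = 0.0881), LPS replicate 3 (0.0992), IL-4+LPS replicate 1 (0.0706) or IL-4+LPS replicate 3 (0.0656), without the expression filter (0.0718) and with only the compared groups (0.0527), while the estimate stayed between -0.54 and -0.35 in all 22 alternatives. *Irgm2* stood at 91.2, 92.1 and 95.2 FPKM, against 109, 125 and 130.1 FPKM after LPS, and its difference of -0.38 (SE 0.15, interval -0.71 to -0.048) did not pass (adjusted p = 0.0802). With only the compared groups it did (adjusted p = 0.0218), and so it did without control replicate 1 (0.0416) or control replicate 3 (0.0358).

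The other 7 genes lay close together in the 2 LPS-exposed groups. *Gbp5* was at 468, 589.6 and 582 FPKM after IL-4 and LPS (-0.15, interval -0.53 to 0.23), *Ifi47* at 284, 358 and 359.9 (0.05, interval -0.47 to 0.57). *Irgm1* was at 265, 281 and 279 FPKM (0.06, interval -0.36 to 0.48), *Gbp3* at 119, 112 and 105 (0.07, interval -0.53 to 0.68), and *Gbp6* at 11.9, 8.13 and 6.37 (0.01, interval -0.46 to 0.48). *Gbp7* was at 46.7, 28.6 and 29.4 FPKM (-0.30, interval -0.84 to 0.25) and passed as lower in 2 of 22 alternatives, and *Iigp1* at 31.8, 16.1 and 9.41 (-0.22, interval -1.18 to 0.75). In all 7 the samples of the groups overlapped. The intervals for *Iigp1*, *Gbp7* and *Gbp3* still hold differences beyond 1.5-fold.

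**Figure D3:**
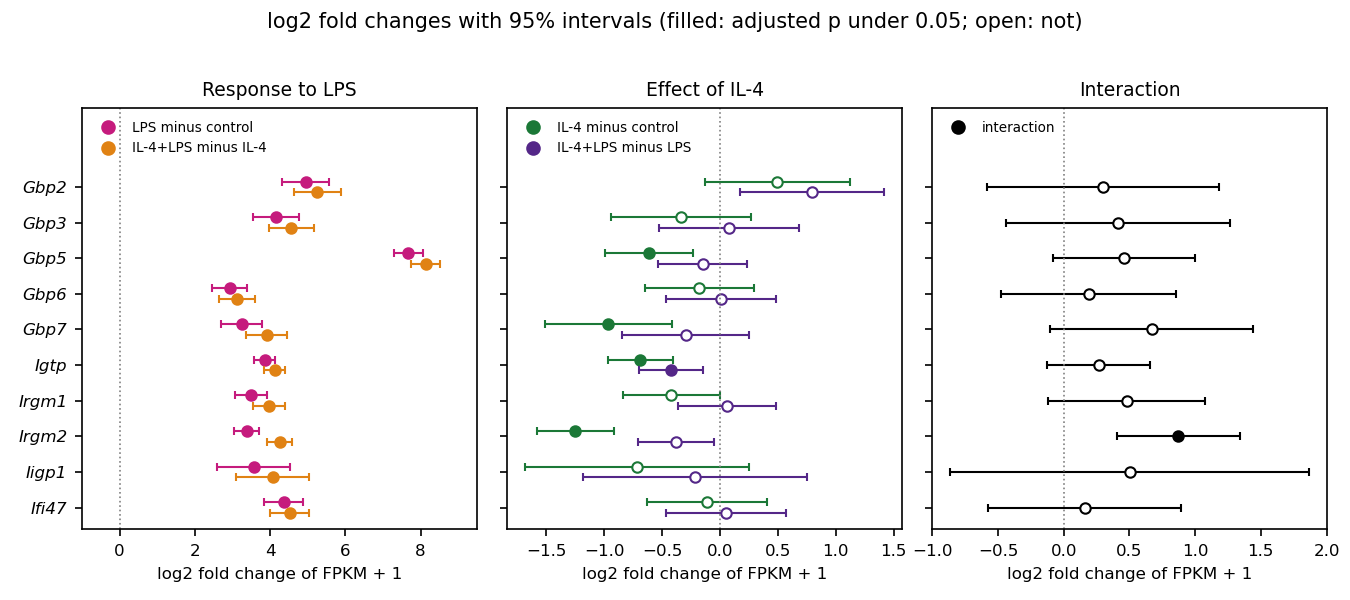
log2 fold changes of FPKM + 1 for each gene with 95% intervals from limma; filled points passed an adjusted p of 0.05. The LPS responses (left) run from 2.93 to 8.14 and are all filled, whereas the effects of IL-4 (middle) run from -1.25 to 0.79 and the interaction (right) is filled only for *Irgm2*.

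The interaction is the difference between the LPS responses of cells with and without earlier IL-4. The 10 estimates ran from 0.16 (*Ifi47*) to 0.87 (*Irgm2*), with a median of 0.44, beside 0.04 for all rows. They come from the same 12 samples and are not 10 separate observations. Only *Irgm2* passed the test (0.87, SE 0.21, adjusted p = 0.0286). Among all rows 4.58% were called positive and 4.63% negative. For *Irgm2* the response was 3.38 without and 4.25 with earlier IL-4. Its levels show where the difference lies, since IL-4 took the starting mean from 10.9 to 3.95 FPKM, and the mean after LPS from 121 to 92.9 FPKM. In FPKM the gain was thus smaller after IL-4, 88.9 against 110.5, although the log2 response was larger. The interaction for *Irgm2* kept its size but missed the threshold in 8 of the 12 fits that left out 1 sample, where it lay between 0.80 and 0.92 with adjusted p of 0.0503 to 0.0783. These were the fits without control replicate 2, IL-4 replicate 2 or 3, any 1 LPS replicate, or IL-4+LPS replicate 2 or 3. It was also lost without the expression filter (adjusted p = 0.0732).

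The order of the levels among the 10 genes changed with the treatment. In control cells the order of the means was *Irgm1*, *Ifi47*, *Irgm2*, *Igtp*, *Gbp2*, *Gbp3*, *Gbp7*, *Gbp5*, *Iigp1* and *Gbp6*, and neighbours in it overlapped except *Gbp7* with *Gbp5* and *Gbp5* with *Iigp1*. After IL-4 the members most abundant were *Irgm1*, *Gbp2* and *Ifi47*, which overlapped, and *Irgm2* had dropped to the sixth place. After LPS the order was *Gbp5* (605 ± 54.0 FPKM), *Gbp2* (338 ± 24.4), *Ifi47* (323 ± 45.7), *Irgm1* (264 ± 19.9), *Igtp* (172 ± 23.7), *Irgm2* (121 ± 10.8), *Gbp3* (106 ± 5.90), *Gbp7*, *Iigp1* and *Gbp6*. *Gbp2* overlapped *Ifi47*, *Ifi47* overlapped *Irgm1*, *Irgm2* overlapped *Gbp3* and *Gbp7* overlapped *Iigp1*, and the other neighbours did not. After IL-4 and LPS *Gbp2* (585 ± 8.52 FPKM) was level with *Gbp5* (547 ± 68.0), whose samples overlapped its own, and *Gbp3* had moved ahead of *Irgm2*, which it did not overlap.

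The samples of replicate 1 differed from the others in the same members in both LPS-exposed groups. There replicate 1 had the highest value of *Gbp2*, *Gbp3*, *Gbp6*, *Gbp7* and *Iigp1*, and the lowest of *Gbp5*, *Ifi47*, *Igtp*, *Irgm1* and *Irgm2*. In the IL-4 samples it was the highest for 8 of the 10 genes, and in control samples for 6. With replicates 2 and 3 alone, a fit added after the data were seen, the LPS counts stayed at 10 of 10, *Gbp2* was higher (0.83, adjusted p = 0.0393), and *Igtp*, *Irgm2* (-0.44, adjusted p = 0.0170) and *Gbp7* (-0.38, adjusted p = 0.0174) were lower after both agents than after LPS. *Irgm1* then passed as lower after IL-4 alone (-0.42, adjusted p = 0.0331).

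Most of the other interferon-inducible GTPase rows that were tested followed a like pattern. Of 15 such genes listed, 14 were in the tables under their symbol. *Gbp2b* is in them as *Gbp1*, its older symbol in RefSeq, and stands outside the counts that follow. In these counts 12 rows for 11 genes were tested, since *Gvin1* has 2 rows. These 2 rows are uncertain, since 99.15% of the words of *Gvin1* recur in other genes. Their IL-4+LPS samples ran from 3.46 to 64.9 and from 4.01 to 48.0 FPKM. *Gbp8*, *Gbp11* and *F830016B08Rik* stayed below 1 FPKM and were not tested. Their ratios of LPS to control means were 1.17, 9.15 and 0.856. *Gbp4* and *Gbp10* reached 1 FPKM only in LPS-exposed samples, so the filter kept them through the groups where they were high. LPS raised 11 of the 12 rows, against 16.9% of all rows called higher, with a median log2 fold change of 3.66 over the 12. The antiviral dynamin-like GTPases *Mx1* (6.53) and *Mx2* (5.85) exceeded all members but *Gbp5*, *Gm12250*, which encodes Irgb10, an IRG that acts with GBPs on bacterial membranes, rose by 4.58 on the log2 scale, and *Tgtp1* and *Tgtp2*, near-copies of each other that share 89.4% of the words of *Tgtp1*, were at 4.32 and 4.18. The GBP genes beside *Gbp6* on chromosome 5 had log2 fold changes of 2.40 (*Gbp10*), 1.05 (*Gbp4*) and 0.94 (*Gbp9*). The added 1 shrinks those of *Gbp10* and *Gbp4*, which started at 0.161 and 0.151 FPKM and had ratios of means of 32.7 and 9.37, and *Gbp9*, from 3.48 FPKM, had a ratio of 2.18. *Gbp10* shares 79.25% of its words with *Gm43302*. *Gm4951*, on chromosome 18 with *F830016B08Rik* between it and *Iigp1*, rose by 1.85. *Irgq*, a distant relative of the IRGs, was at -0.15 (adjusted p = 0.538). After IL-4 alone 5 of the 12 rows were lower (*Mx1*, *Mx2*, *Gbp9*, *Tgtp1* and *Tgtp2*), against 21.0% of all rows called lower. In IL-4+LPS against LPS only *Mx2* was lower (-0.45, adjusted p = 0.0319), against 15.8% of all rows.

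*Gbp1*, the row of *Gbp2b*, lies between *Gbp3* and *Gbp2* on chromosome 3, and was examined after its values were seen. It was at 0.127, 0.190 and 0.0675 FPKM in control samples and at 2.80, 2.10 and 3.49 FPKM after LPS (1.73, SE 0.15, adjusted p = 1.92e-06). After IL-4 alone it was at 0.107 to 0.160 FPKM (0.01, adjusted p = 0.960). After IL-4 and LPS it was at 6.32, 4.62 and 4.33 FPKM, with every sample above every LPS sample, which 20.4% of all rows also showed. The limma test called it higher than after LPS alone (0.68, SE 0.15, adjusted p = 0.00537), as it did 15.0% of all rows. The interaction was 0.67 (SE 0.21, adjusted p = 0.0732) and did not pass. No alternative settings were run for this gene.

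**Figure D4:**
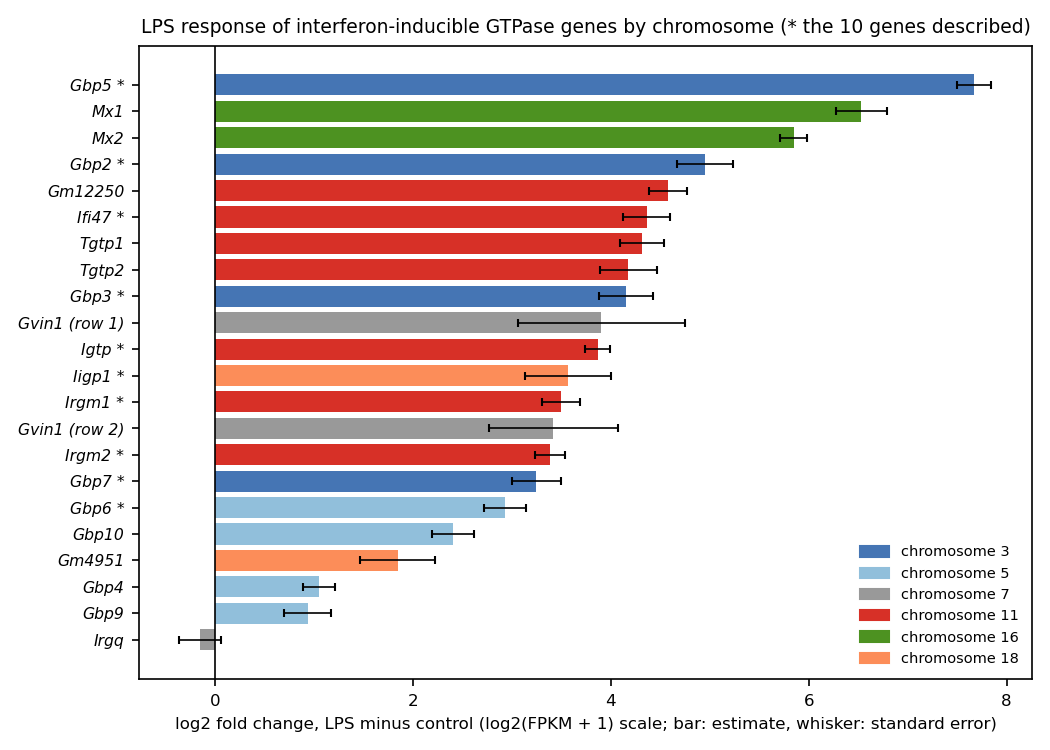
LPS response of the 10 described genes (marked *) and of the other tested interferon-inducible GTPase rows as log2 fold change on the log2(FPKM + 1) scale, coloured by chromosome; whiskers are standard errors. The chromosome 5 genes (light blue) take the values 0.94 to 2.93, and *Irgq* is the only row not called higher.

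Genes that act before the GTPases were measured in the same samples. *Ifnb1*, which encodes interferon-β, was at 0.147, 0.110 and 0 FPKM in control samples and at 3.13, 2.14 and 2.05 FPKM after LPS (log2 fold change 1.65, adjusted p = 0.00397), and it was listed at 0 in all 3 IL-4 samples. After IL-4 and LPS it was at 2.07, 10.6 and 10.6 FPKM, so that replicates 2 and 3 lay above all LPS samples and replicate 1 among them (1.13, adjusted p = 0.0616). Of the 5 ligand and receptor genes tested, LPS raised 4 (*Ifnb1*, *Ifnar1*, *Ifnar2* and *Ifngr2*), against 16.9% of all rows called higher. *Ifnb1* reached 1 FPKM only in LPS-exposed samples, so the filter kept it through the groups where it was high. LPS lowered *Ifngr1* (-0.60), a call that median scaling removed, where 57.7% of all rows were called lower. IL-4 alone lowered *Ifnar2* (-0.46, adjusted p = 0.00224) and *Ifngr1* (-0.82, adjusted p = 0.00527), which encode subunits of the type I and type II interferon receptors. In IL-4+LPS against LPS, *Ifnar2* (-0.38) and *Ifngr2* (-0.45) were lower.

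Of 16 JAK, STAT, IRF and feedback genes, LPS raised 13, against 16.9% of all rows called higher. It lowered *Irf8* (-1.29) and *Irf3* (-0.42), of which median scaling kept 1, where 57.7% of all rows were called lower. The transducers of interferon signals rose, *Stat2* by 2.64, *Irf9* by 0.72, *Irf7* by 2.77 and *Irf1*, a direct activator of GBP genes, by 3.56. IL-4 alone lowered 5 of the 16, among them *Irf7* (-2.53), *Irf9* (-1.01), *Irf8* and *Nlrc5*, against 21.0% of all rows called lower. It raised 5, among them *Socs1* (4.17), the inhibitor of JAK kinases, *Jak2* (1.21) and *Irf1* (0.49), against 16.0% of all rows called higher. In IL-4+LPS against LPS, *Irf8* was at 132, 205 and 200.4 FPKM against 33.4, 31.3 and 31.2 FPKM (2.43, adjusted p = 1.57e-06), and *Irf1* was at 890.2, 799 and 776 FPKM against 541, 456 and 425 FPKM (0.80, adjusted p = 0.00235). *Socs1* was higher too (0.96, adjusted p = 0.0278), and *Batf2* (-0.44), *Jak1* (-0.40) and *Irf3* (-0.36) were lower. *Stat2*, at 98.8, 106 and 102 FPKM against 75.2, 87.6 and 88.1, did not pass (0.29, adjusted p = 0.138). Its samples did not overlap, which 20.4% of all rows showed in that direction.

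**Figure D5:**
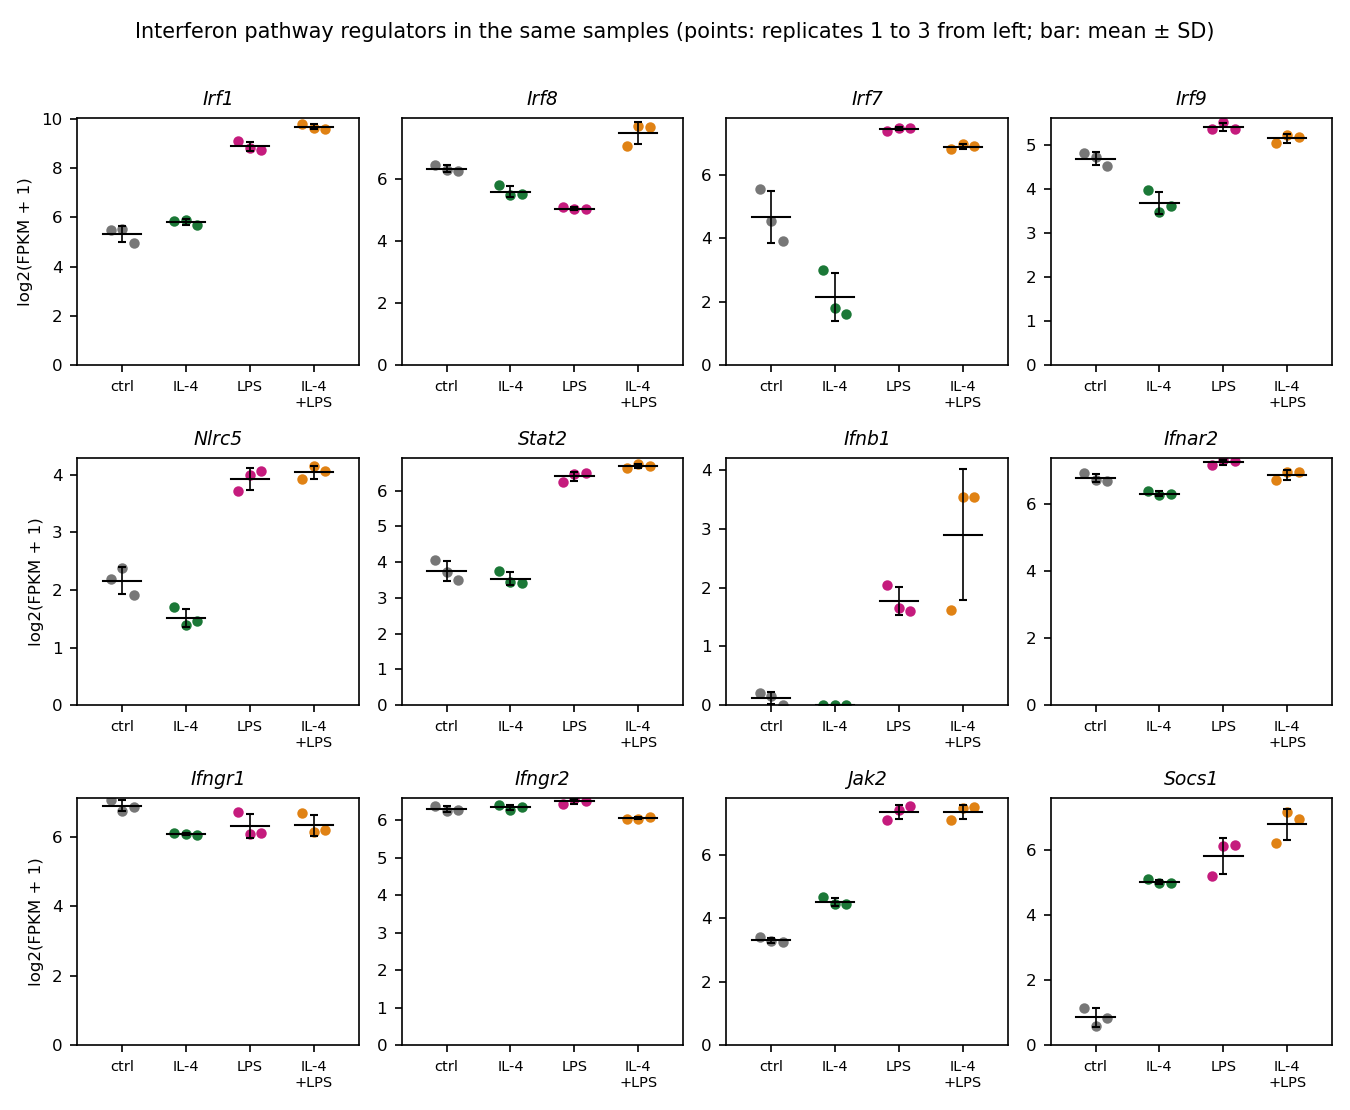
Levels of 12 interferon pathway genes as log2(FPKM + 1) in the same 12 samples; points are replicates 1 to 3 from left to right and bars are mean ± SD of 3 samples. *Irf1*, *Irf8*, *Stat2* and *Socs1* have all IL-4+LPS samples above all LPS samples, as do 20.4% of all rows. *Ifnb1* has replicates 2 and 3 far above replicate 1 in the IL-4+LPS group.

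Genes for factors that GTPases of this kind need were measured as well. Of 14 genes of ATG8 conjugation and cargo binding, which are needed to bring IRGs and GBPs to vacuoles, LPS raised 4, led by *Trim21* (2.20) and *Sqstm1* (1.96), and lowered 6, led by *Map1lc3b* (-1.23) and *Gabarapl1* (-1.16), beside the 16.9% of all rows called higher and 57.7% called lower. With median scaling 6 were higher and 5 lower, so the balance of directions rests on how the samples are scaled. In IL-4+LPS against LPS *Tax1bp1* was lower (-1.34, adjusted p = 0.000113), from 129, 128 and 146 to 61.7, 49.1 and 47.9 FPKM, and *Gabarapl1* was higher (0.27). Of 10 genes for prenylation, the lipid attachment that *Gbp2* and *Gbp5* products carry, and for GDP dissociation inhibitors, LPS lowered 8, *Fnta* (-0.98) and *Icmt* (-0.85) most, where 57.7% of all rows were called lower. With median scaling 4 were lower and 1 was higher, so this direction rests in part on how the samples are scaled. Of 8 genes of cytosolic LPS and DNA sensing, LPS raised 5, against 16.9% of all rows. *Nlrp3* (4.40) and *Casp4* (2.95), the mouse gene for caspase-11, were ahead. LPS lowered *Naip5* (-0.97) and *Nlrc4* (-0.61), of which median scaling kept 1, against 57.7% of all rows. In IL-4+LPS against LPS 3 of the 8 were lower, against 15.8% of all rows. *Nlrp3* (-0.99, adjusted p = 0.000177) and *Casp4* (-0.88, adjusted p = 0.00307) fell most, from 160.4, 131 and 134 to 91.7, 69.8 and 69.3 FPKM for *Casp4*.

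The genes whose pattern was most like the mean of the 10 members, by Pearson r over the 12 samples, were *Rsad2* (0.9995), *Mx1* (0.9994), *Cmpk2* (0.9985), *Ifih1* (0.9983) and *Ifit1* (0.9982). These values describe the likeness only, and they are dominated by the step between samples with and without LPS, which every point shares with its group. Their mean levels ran from 3.11 to 6.16 FPKM in control cells, from 0.903 to 4.08 after IL-4, and from 129 to 914 FPKM after LPS. Within the 10, the least like their own mean were *Iigp1* (0.9777) and *Gbp2* (0.9796).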

How the data were processed

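Poly-A selected RNA of 12 BMDM cultures had been sequenced. Per the study's methods and the submitters' processing notes, the authors mapped reads to mm10 with TopHat2 2.0.7 and computed FPKM values per gene with Cufflinks 2.0.2, 1 table per sample; no further normalization between samples, gene annotation or strand setting is given in the sources used here. Since FPKM scales each sample by its own mapped fragments, strong induction of some genes lowers the values of others. The deposited FPKM values were joined on symbol, locus and start site, and starts were converted to count from 1. Rows of at least 1 FPKM in at least 1 sample were kept, as in the study. log2(FPKM + 1) values were fitted with limma 3.58.1 (R 4.3.3; group means over all 12 samples, eBayes with intensity trend), with Benjamini-Hochberg adjustment within each contrast and a threshold of 0.05; the script was tested on simulated data. A log2 fold change of a gene below 1 FPKM is understated. Groups came from the labels. No count-based interval could be formed.

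The members and gene lists were chosen with earlier results of these data known. Named were the 10 members, any gene of the GTPase, interferon and JAK-STAT lists, up to 2 called genes in each direction of the other lists, and the 5 rows most like the members' mean. Regulator and marker lists came from general knowledge. Motifs were searched in the RefSeq promoter table with Python 3.11.15. Alternatives were another pseudocount, 2 other filters, quantile and median scaling, no trend, only the compared groups, a replicate block, a 2-fold minimum and leaving out each sample; replicates 2 and 3 alone were added after seeing the data. A gene of the JAK-STAT list is counted with its list but not reported here.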

Additional observations from a re-analysis of the deposited data

Results flagged for a closer look

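The LPS response of *Irgm2* differed between cells with and without earlier IL-4. The interaction was 0.87 on the log2 scale (SE 0.21, adjusted p = 0.0286, limma), with responses of 4.25 and 3.38, and 3 of 3 LPS-exposed samples lay above all samples without LPS in either pair of groups. The test of the difference itself singled it out, as it did for 4.58% of all rows in the same direction. Over the fits that left out 1 sample the value ran from 0.72 to 1.04, and 8 of these 12 fits missed the threshold. Groups of 3 samples are too small for a check on single outlying samples.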

How the results depend on the processing

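The counts of 10 of 10 genes raised by LPS, without and with earlier IL-4, held under all 22 alternatives. Of 1090 values of single genes under the alternatives, 1036 kept direction and side of the threshold, 24 lost and 17 gained it, and 13 changed sign, none of them past the threshold on both sides. With a 2-fold minimum, 1 gene was lower after IL-4 (*Irgm2*), 0 were lower after both agents than after LPS, and the interaction count was 0. Without the expression filter the last 2 counts were also 0 and 0. With only the compared groups, 1 gene (*Gbp2*) was higher after both agents than after LPS. With replicates 2 and 3 alone, 1 was higher and 3 were lower, and the interaction count was 2. Leaving out 1 sample gave 0 to 1 higher and 0 to 2 lower genes, and 0 to 1 for the interaction; the cause was not tested. Sign changes came in genes near 0: *Ifi47* after IL-4 ran from -0.34 to 0.041 when 1 sample was left out, and in IL-4+LPS against LPS *Iigp1* ran from -0.65 to 0.20, *Ifi47* from -0.069 to 0.16 and *Gbp6* from -0.21 to 0.22. The interaction of *Gbp6* ran from -0.028 to 0.40. Quantile normalization put *Irgm1* at -0.044 and *Ifi47* at -0.052 in IL-4+LPS against LPS.

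Replicate numbers were shared by the groups. Over the 18 pairs of same-numbered samples the correlations of deviations ran from 0.00236 to 0.386, with a mean of 0.124. Of these, 11 were above 0.1, among them all 6 pairs of replicate 1. Since not all were, and the labels tie no number to an animal, the samples were not treated as pairs. The main fit thus leaves any effect shared by a replicate number in the spread. With the replicate number as a block, 1 gene (*Gbp2*, adjusted p = 0.0276) was higher and 2 (*Igtp* and *Gbp7*, 0.0139) were lower after both agents than after LPS, and the interaction count was 2 (*Irgm2* and *Gbp7*, 0.00453). With FPKM alone, absolute depth is unknown, which limits *Gbp6* and *Iigp1* most.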
